A study of Mus musculus with 6 samples.

Results

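The 7 subunits of respiratory complex I that are encoded by mitochondrial DNA, ND1, ND2, ND3, ND4, ND4L, ND5 and ND6, were followed through bulk RNA sequencing of retinal ganglion cells, which carry the output of the retina to the brain. They were taken by name from the raw count table, where they are 7 of 22413 genes and 7 of the 13 mitochondrial mRNAs listed. In 3 samples the cells came from adult mice of genotype Tgfbr1flx/flx;Vglut2Cre/+, in which Cre recombinase is driven by Vglut2 (Slc17a6), the vesicular glutamate transporter gene of ganglion cells and of other glutamatergic neurons. In the other 3 samples they came from adult Tgfbr1flx/flx;Vglut2+/+ mice, so both groups carry the floxed Tgfbr1 allele (the type I receptor for TGF-beta) and differ by Cre. The groups are called Cre and control, and the comparison addresses what Cre in Vglut2 cells does to expression on the floxed background. The labels do not say whether a sample was 1 animal or a pool, so each p-value refers to the variation among these samples alone, part of which may be technical.

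Complex I (NADH dehydrogenase) takes electrons from NADH, passes them to ubiquinone and pumps protons across the inner mitochondrial membrane. Its catalytic arm is built from subunits imported from the cytosol, while the ND proteins form the core of its membrane arm: ND2, ND4 and ND5 resemble antiporters and carry the proton channels, ND1 sits at the junction with the catalytic arm beside the ubiquinone site, and ND3, ND4L and ND6 are smaller membrane subunits between them. All but ND6 are transcribed on the same strand of the mitochondrial genome as 1 long precursor that is cleaved into single mRNAs, with ND4L and ND4 kept on a shared mRNA; ND6 is read from the other strand. Ganglion cells have a high demand for ATP, and inherited mutations in ND genes are the usual cause of Leber hereditary optic neuropathy, a disease in which ganglion cells die.

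The libraries held 7486359 to 21126291 gene counts. The targeted gene did not check the labels: Tgfbr1 had 46, 0 and 793 counts in Cre 1, 2 and 3 and 1, 0 and 1538 in controls 1, 2 and 3, over the whole gene and not the floxed part. Of 13 ganglion cell markers, 7, 10 and 10 reached 10 counts in the Cre libraries and 9, 9 and 6 in the controls. Their summed level was 3519 to 5197 CPM (a count scaled to the library total) in Cre and 647.0 to 5333 in control. Control 3 stood apart. It held the 647.0 CPM, with 5 of the 13 markers at 0 against 2 to 4 in the other libraries. Slc17a6 and Pou4f2 were among the 5 (Pou4f2 was at 0 or 1 count in all 6 libraries). Rbpms and Pou4f1 did not follow: in control 3 they had 256.7 and 85.1 CPM, against 0.0718 to 289.1 and 0 to 265.1 elsewhere. The 10 endothelial markers, all above 0 in control 3, summed to 6042 CPM there against 35.9 to 795.8 in the other 5 libraries. The 8 Müller glia markers summed to 6281 CPM in control 3 against 695.2 to 2262. Of that glial sum 5867 CPM was Vim, which other cell types express too. Rlbp1 was at 152.3 CPM in control 3 and at 0 or 1 count in every other library. Apoe was at 223.0 CPM in control 3 and at 0 to 360.4 CPM elsewhere. Slc1a3, Aqp4 and Dkk3 were at 0 in control 3, and each was at 0 in other libraries too. Glul, at 39.0 CPM, was lowest in control 3. Every Cre library had more genes at 10 counts or more (5790 to 7209) than every control (4258 to 4863).

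ND3 and ND4L, the shortest ND genes, were counted at a small fraction of the other members, and their sequences show a feature that sets them apart. In the mm10 annotation ND3 lies at chrM:9459-9806 and ND4L at chrM:9877-10173, both on the plus strand and both without introns. Unprocessed pseudogenes on chromosome 1 carry almost the same bases: Gm28438 (minus strand, 24612775 to 24613119) covers ND3 and Gm10222 (minus strand, 24612407 to 24612700) covers ND4L. Bases 1 to 300 of ND3 (chrM:9459-9758) and the whole of ND4L are shown from RefSeq-matched GENCODE M21 transcripts, 5′ to 3′, in lower case, with any base in capitals that differs from the chromosome 1 copy.
ND3: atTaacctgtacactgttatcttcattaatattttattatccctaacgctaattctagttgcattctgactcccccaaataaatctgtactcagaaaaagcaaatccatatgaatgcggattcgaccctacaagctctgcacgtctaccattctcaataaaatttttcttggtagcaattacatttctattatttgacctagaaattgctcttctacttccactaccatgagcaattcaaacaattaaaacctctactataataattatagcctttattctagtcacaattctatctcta
ND4L: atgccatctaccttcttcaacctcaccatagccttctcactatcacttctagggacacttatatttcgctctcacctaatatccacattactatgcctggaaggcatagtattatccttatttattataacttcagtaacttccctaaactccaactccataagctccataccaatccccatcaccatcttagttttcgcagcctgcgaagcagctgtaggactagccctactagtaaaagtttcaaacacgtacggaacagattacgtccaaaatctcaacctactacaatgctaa
Over the 345 bases that ND3 shares with Gm28438, 344 were identical. The exception is T3C, with positions counted from 1 at the 5′ end of ND3, the ND3 base first and the copy's base last. Over the 294 bases that ND4L shares with Gm10222 there was no difference, so ND4L has no capital. Neither copy is a row of the count table.

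The same measurement was made for all 13 mitochondrial mRNAs by sliding a window of 50 bases along each and looking for an exact copy, on either strand, in annotated transcripts from other chromosomes. Of the windows of ND3, 98.0% had such a copy, and of those of ND4L, 98.8%. ND4 was intermediate at 62.2%: its bases 1 to 876 match Gm28439, the neighbouring pseudogene on chromosome 1, and the rest of its 1378 bases had no copy. ND2 and ND5 had copies for 8.19% and 7.61% of windows, and ND1 and ND6 for 0%. The 7 pseudogenes on chromosome 1 lie in a row between 24611535 and 24616197, cover COX1 to ND4 in the mitochondrial order, and 0 of them are in the count table. Longer windows gave nearly the same picture for ND3, ND4L and ND4, with 97.0%, 98.0% and 59.2% at 150 bases.

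Levels per length are compared as FPKM, the deposited counts scaled to gene length and library total. ND3 had 104.1, 58.1 and 30.5 FPKM in the Cre libraries and 102.2, 148.5 and 0 in the controls. ND4L had 72.5, 4.14 and 18.3 FPKM in Cre and 1.16, 11.7 and 0 in control. Both are listed at 0 in control 3 alone. The other 5 members lay between 1204 and 20933 FPKM in every library. The low values were not limited to ND genes: the 6 mRNAs from COX2 to ND4L (COX2, ATP8, ATP6, COX3, ND3 and ND4L, chrM positions 7013 to 10173) had medians of 7.92 to 80.2 FPKM over the 6 libraries, and the other 7 mRNAs had medians of 1351 to 13562. For 5 of these 6, over 90% of windows had a copy. The exception was ATP8 at 0%, for which the annotation has no chromosome 1 transcript, only a gap of 233 bases between the copies of ATP6 and COX2. How reads matching both places were assigned is not given in the sources used here, and the part of these copies in the low counts was not tested. The counts of ND3 and ND4L are therefore uncertain as levels of the mRNAs.

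**Figure D1:**
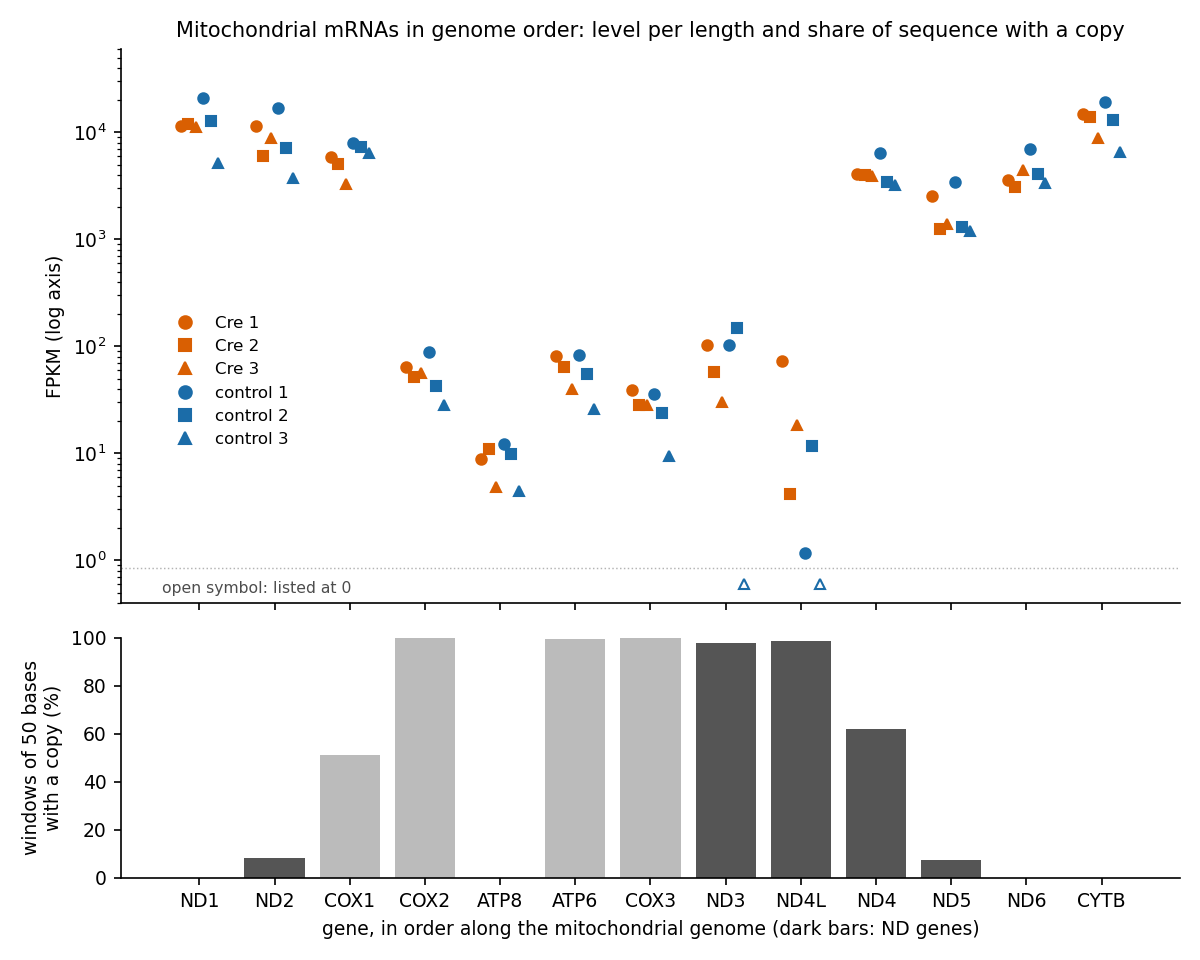
Upper panel: FPKM (log axis) of the 13 mitochondrial mRNAs in each of the 6 libraries, in genome order (orange Cre, blue control; circle, square and triangle for samples 1, 2 and 3; open symbols are listed at 0). Lower panel: percent of windows of 50 bases with an exact copy in a transcript from another chromosome, where ND3 (98.0%) and ND4L (98.8%) sit in the run of low mRNAs from COX2 to ND4L.

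Neighbouring ND genes also share bases with each other. ND4L and ND4 overlap by 7 bases on the plus strand, and ND5 and ND6 by 14 bases on opposite strands. The overlaps are shown in capitals, each within 30 bases of its gene, since reads there can belong to either gene.
ND4L end, chrM:10144-10173, plus strand: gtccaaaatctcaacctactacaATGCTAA
ND4 start, chrM:10167-10196, plus strand: ATGCTAAaaattattcttccctcactaatg
ND5 end, chrM:13536-13565, plus strand: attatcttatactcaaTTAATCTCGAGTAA
ND6 end, chrM:13552-13581, minus strand: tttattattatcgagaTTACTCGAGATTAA
The strand setting of the counting is not given, so reads of ND6 cannot be told from any RNA of the opposite strand across the gene.

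By mean FPKM over the 6 libraries the order was ND1 (12290), ND2 (9011), ND6 (4283), ND4 (4199), ND5 (1863), ND3 (73.9) and ND4L (18.0). ND1 lay above ND2 in 6 of 6 libraries, at ratios of 1.01 to 1.96, and ND2 above ND6 in 6 of 6. ND6 and ND4 did not separate: ND6 was higher in 4 of 6 libraries, with ratios of 0.761 to 1.18. ND4 was above ND5 in 6 of 6 libraries and ND5 above ND3 in 6 of 6. ND3 was above ND4L in 5 of 6, and both were at 0 in the other. The place of ND4 depended on the length used. With windows that have a copy left out of the length, a scale added after the data were seen, ND4 had 11116 ± 3081 (SD, n = 6) against 12290 ± 5027 for ND1 and 9815 ± 5016 for ND2, all in FPKM over copy-free length. ND1 was then above ND4 in 5 of 6 libraries and ND4 above ND2 in 4 of 6, so these 3 did not separate, and all 3 lay above ND6 and ND5. This scale assumes that no read with a copy was counted, which was not tested.

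None of the 7 members passed the comparison of Cre with control in edgeR's quasi-likelihood test. Of the 5727 genes tested, 0 (0%) had a Benjamini-Hochberg adjusted p under 0.05 with edgeR. The unadjusted p was under 0.05 for 281 genes (4.91%) and for 0 of the 7 ND genes. DESeq2 called 885 of the 5900 genes it gave an adjusted p (15%) and limma voom 88 of 5727 (1.54%). The log2 fold change (Cre against control) was negative for 6 ND genes and positive for ND4L, with a median of -0.11 beside 0.14 for all tested genes, on the TMM scaling used here. With DESeq2's size factors in edgeR the ND median was -0.32 and that of all tested genes -0.13.

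ND1, the subunit at the ubiquinone site, had 11087, 11374 and 10883 CPM in Cre 1, 2 and 3 and 20033, 12192 and 4999 in controls 1, 2 and 3. The Cre libraries lay close together, inside the wide range of the controls. Mean levels were 11115 ± 246 and 12408 ± 7519 CPM (SD, n = 3), a log2 fold change of -0.11 ± 0.53 (SE, with edgeR adjusted p = 1.00). The SE of each edgeR value was derived from the F statistic of its test, as the absolute log2 fold change over the square root of F.

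ND2, ND4 and ND5 are the antiporter-like subunits. ND2 had 11940, 6301 and 9129 CPM in Cre and 17405, 7442 and 3902 in control. ND4 had 5638, 5562 and 5418 CPM in Cre and 8909, 4781 and 4411 in control. ND5 had 4669, 2286 and 2529 CPM in Cre and 6312, 2398 and 2196 in control. In all 3 genes control 1 was the highest and control 3 the lowest library, and the Cre values fell between them. The log2 fold changes were -0.02 ± 0.73 for ND2, -0.07 ± 0.32 for ND4 and -0.13 ± 0.51 for ND5 (edgeR adjusted p = 1.00 for each).

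ND6, the light-strand gene, had 1877, 1594 and 2321 CPM in Cre and 3669, 2117 and 1759 in control. The groups overlapped, with control 1 highest and Cre 2 lowest. Its means were 1931 ± 367 and 2515 ± 1016 CPM and its log2 fold change -0.33 ± 0.41 (edgeR adjusted p = 1.00), the most negative of the 7.

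ND3 and ND4L, whose sequence is copied almost whole on chromosome 1, had few counts. ND3 had 505, 427 and 86 counts in Cre and 413, 387 and 0 in control, a log2 fold change of -0.17 ± 3.06. ND4L had 300, 26 and 44 counts in Cre and 4, 26 and 0 in control, a log2 fold change of 3.29 ± 2.89. The mean of ND4L was 9.40 ± 10.7 CPM in Cre and 1.27 ± 1.91 in control, a ratio of 7.38, and most of it came from Cre 1, since Cre 2 (1.23 CPM) lay below control 2 (3.47 CPM). Neither passed (edgeR adjusted p = 1.00). A count of 0 in control 3 allows up to 3 counts, 0.183 CPM, by counting error only.

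**Figure D2:**
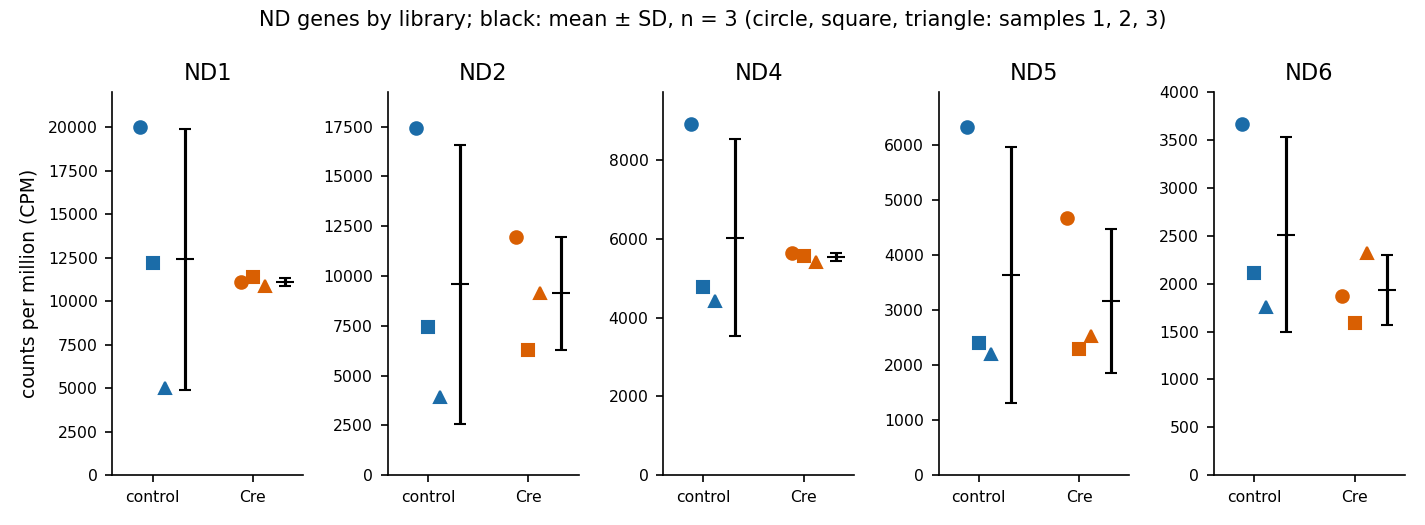
CPM (each vertical axis starts at 0) of ND1, ND2, ND4, ND5 and ND6 in the 3 control (blue) and 3 Cre (orange) libraries, with mean ± SD in black. Control 1 is the highest library in each panel, and the Cre values of ND1 (10883 to 11374) and ND4 (5418 to 5638) lie close together.

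Across the table every Cre library lay above every control for 593 of 5727 tested genes (10.4%) and below for 132 (2.3%), and 0 of the 7 ND genes did either. Over the 6 libraries the SD of log2(CPM + 1) was 0.35 for ND4, 0.43 for ND6, 0.64 for ND1, 0.64 for ND5 and 0.75 for ND2. The median SD was 1.14 (quartiles 0.77 and 1.71) over the 1196 genes with at least 10 counts in every library, and 0.63 over the 93 genes that are not mitochondrial among the 100 highest. The 5 well counted ND genes lay within or below the quartiles of these abundant transcripts (0.48 and 0.89). ND3 and ND4L had SDs of 2.11 and 1.66.

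Summed over the 7 genes, the libraries held 35269, 27138 and 30297 CPM in Cre 1, 2 and 3 and 56364, 28985 and 17267 in controls 1, 2 and 3. On average this was 30902 ± 4099 and 34205 ± 20064 CPM (SD, n = 3), a log2 ratio of -0.15, smaller than the spread between the controls. Both extremes were controls. Without control 1 the log2 ratio was 0.42 and without control 3 it was -0.47. The same libraries moved the single genes: without control 1 the log2 fold change was 0.66 for ND1, 0.99 for ND2, 0.49 for ND4, 0.74 for ND5 and 0.22 for ND6, and without control 3 it was -0.53, -0.46, -0.32, -0.47 and -0.60 in the same order. No ND gene passed in either fit, by edgeR's adjusted p. Without control 1 edgeR's unadjusted p was 0.00425 for ND1, 0.0141 for ND2 and 0.0430 for ND5, and above 0.05 for the other members. In that fit 377 of 7654 genes had an unadjusted p under 0.05. Without control 3 no ND gene did. Beside these values stand the markers of control 3 given above, and a share of all counts in mitochondrial mRNA of 9.08% in control 1, 3.48% in control 3 and 4.57% to 6.14% in the other 4 libraries. Their part in the ND levels was not tested, and in bulk samples fewer cells of a type and less RNA per cell cannot be told apart.

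The share of each ND gene in the counts of the 13 mitochondrial mRNAs is a measure taken relative to the mitochondrial total of its own library. Together the ND genes made up 57.4%, 53.0% and 66.3% in Cre and 62.1%, 52.3% and 49.6% in control. The means were 58.9% ± 6.8 and 54.7% ± 6.5 (SD, n = 3), a difference of 4.25 percentage points that is smaller than the SD of either group. With COX1 left out of the total, an alternative chosen after the data were seen, the difference turned to -0.80 percentage points. The 95% Wilson interval of a single ND gene's share in a library was at most 0.275 percentage points wide, so counting error was small beside the spread between libraries.

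ND1 held 18.0%, 22.2% and 23.8% of the mitochondrial counts in Cre and 22.1%, 22.0% and 14.4% in control. Its share was 22.0% to 22.2% in 3 libraries and lowest in control 3. ND2 held 19.4%, 12.3% and 20.0% in Cre and 19.2%, 13.4% and 11.2% in control. It was 19.2% to 20.0% in 3 libraries and 11.2% to 13.4% in the other 3, and each group had both kinds. ND4 held 9.18%, 10.9% and 11.9% in Cre and 9.81%, 8.63% and 12.7% in control. ND5 held 7.60%, 4.46% and 5.54% in Cre and 6.95%, 4.33% and 6.31% in control. ND6 held 3.06%, 3.11% and 5.08% in Cre and 4.04%, 3.82% and 5.05% in control. ND3 held at most 0.0933% (control 2) and ND4L at most 0.0350% (Cre 1).

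Exact two-sided permutation tests of the shares gave p = 0.5 for ND1, 0.5 for ND2, 1 for ND3, 0.9 for ND4, 0.2 for ND4L, 1 for ND5 and 0.6 for ND6. With 3 libraries against 3 the smallest possible p is 0.1. Adjusted over the 13 mitochondrial mRNAs the permutation values ran from 0.78 to 1 for the ND genes. Relative to the mitochondrial counts, 583 of 5727 tested genes (10.2%) were higher in every Cre library than in every control and 105 (1.83%) were lower, and 0 of the 7 ND genes were.

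**Figure D3:**
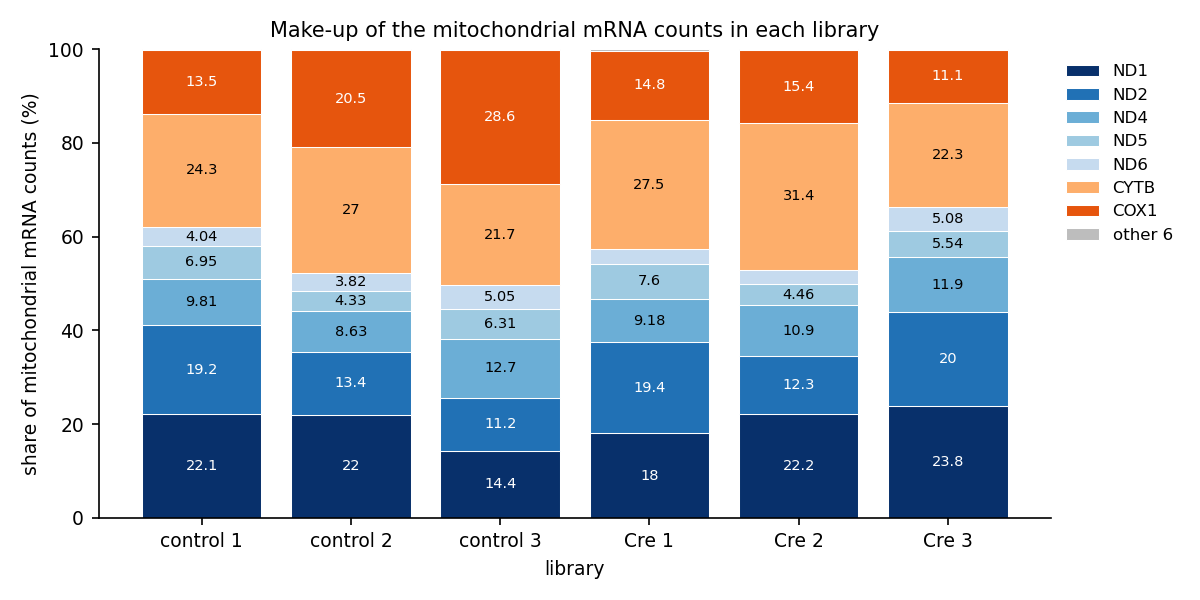
Share of the counts of the 13 mitochondrial mRNAs in each library (percent, stacked), with ND1, ND2, ND4, ND5 and ND6 in blue, CYTB and COX1 in orange and the other 6 mRNAs, ND3 and ND4L among them, in grey (too thin to see). The ND genes sum to 49.6% in control 3, where COX1 is largest at 28.6%, and to 66.3% in Cre 3, where COX1 is smallest at 11.1%.

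Among ND1, ND2, ND4, ND5 and ND6 the ratios between members varied by a factor of 1.54 to 2.87 over the 6 libraries. Pairs with ND3 or ND4L, which are at 0 in control 3, are not in this range. Of the 10 pairs among the other members, 0 had ratios that did not overlap between the groups. ND4 to ND6, genes on opposite strands, was the steadiest pair, at 0.851 to 1.31 in FPKM. ND2 to ND6 varied most, from 1.11 in control 3 to 3.18 in Cre 1. ND4 to ND5 was lowest in Cre 1 and control 1 (at most 1.87) and between 2.64 and 3.22 in the other 4 libraries.

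Other mitochondrial mRNAs did not pass either (0 of 6, with 4 positive and 2 negative log2 fold changes). COX1, the catalytic subunit of complex IV, had the smallest p of them, with 9124, 7908 and 5084 CPM in Cre and 12292, 11383 and 9966 in control. Its groups did not overlap, and its log2 fold change was -0.48 ± 0.28 (edgeR adjusted p = 1.00; unadjusted p = 0.102). COX3, also of complex IV, had the next smallest, with 25.1 ± 4.8 CPM in Cre and 18.0 ± 10.3 in control, and its sequence is among those with a copy on chromosome 1.

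The subunits of complex I that are encoded in the nucleus were all tested, 37 of 37. Of these 31 had a positive and 6 a negative log2 fold change, with a median of 0.49 beside 0.14 for all tested genes. Of all tested genes 54.2% were positive. None of the 37 passed with edgeR, and 3 had an unadjusted p under 0.05, beside 4.91% of all tested genes. These 3 were Ndufb9, at 1352 ± 68 CPM in Cre and 469 ± 318 in control (log2 fold change 1.61 ± 0.66), Ndufa5, at 1192 ± 362 and 478 ± 125 (1.37 ± 0.60), and Ndufv2, a catalytic arm subunit, at 266.3 ± 257.4 and 1010 ± 230 (-1.84 ± 0.82). Summed over the 37 genes the libraries held 28813, 27752 and 20816 CPM in Cre and 24263, 20760 and 15201 in control. The ND sum was 1.22, 0.978 and 1.46 times the nuclear sum in Cre and 2.32, 1.40 and 1.14 times in control. The ratio was highest in control 1 and overlapped between the groups.

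Factors that assemble complex I or make and process mitochondrial RNA were mostly too sparse to test. Of 18 assembly factors 8 were tested, 6 positive and 2 negative, and 0 passed. Ndufaf8 was at 155.8 ± 20.4 CPM in Cre and 23.1 ± 38.5 in control, Dmac1 at 57.9 ± 46.4 and 202.2 ± 121.2, and Tmem126b at 119.2 ± 206.5 and 346.1 ± 408.8. Of 28 factors of mitochondrial transcription and RNA 9 were tested, 5 positive and 4 negative, and 0 passed. Slirp, which binds mitochondrial mRNAs with Lrpprc and stabilises them, was at 424.6, 350.1 and 351.9 CPM in Cre and 266.4, 19.9 and 18.8 in control (log2 fold change 1.83 ± 1.61; edgeR adjusted p = 1.00), and its groups did not overlap. Grsf1, an RNA-binding protein of mitochondrial RNA granules, was at 33.9 ± 54.9 and 157.4 ± 150.1 CPM, and Tbrg4 at 11.97 ± 7.31 and 55.7 ± 56.4. Of 11 genes of mitochondrial DNA replication 4 were tested and 0 passed.

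The genes whose profile over the 6 libraries was closest to the ND genes were sought by the root mean square difference of log2(CPM + 1) after each gene's mean was removed. The candidates were 1163 genes: of the 1196 with at least 10 counts in every library, the 5 ND genes and 28 with symbols of predicted genes or pseudogenes were left out. With the mean of all 7 members these were Hypk (0.10), Stmp1, a small mitochondrial protein (0.21), Ndufa7 of complex I (0.21), COX3 (0.21) and Cox6c of complex IV (0.30). That mean leans on ND3 and ND4L, which are at 0 in control 3. With the 5 members that had at least 10 counts in every library, a choice made after the data were seen, they were COX2 (0.16), Mrps14 of the mitochondrial ribosome (0.20), Tma7 (0.21), Polr2k of the RNA polymerases (0.24) and Ndufa12 of complex I (0.27). The 2 lists share 0 genes. On the second profile CYTB ranked 9 and COX1 ranked 89 of 1163.

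With every library kept, the direction of ND1, ND2, ND3, ND4 and ND5 turned with the processing, and that of ND4L and ND6 did not. The TMM-scaled log2 fold changes were negative for all 5 well counted members, and those scaled to the mitochondrial mRNA total were 0.13 for ND1, 0.24 for ND2, 0.04 for ND4, 0.00 for ND5 and -0.20 for ND6, with no adjusted p under 0.05. Limma voom called 3 members in opposite directions, beside 88 of 5727 genes (1.54%) over the table. In voom ND1 was lower (-1.15 ± 0.09, adjusted p = 0.000146). ND2 (1.63 ± 0.25, voom adjusted p = 0.0337) and ND4 (0.41 ± 0.02, voom adjusted p = 3.58e-06) were higher. In that fit control 1 carried 99.96% of the control weight for ND1, and control 3 carried 85.3% for ND2 and 99.7% for ND4. The largest weight of a library was 1010860 times the smallest for ND1, where the median of this ratio over all tested genes was 2.13. The mean of these 3 genes in voom rested mostly on 1 library in each group. In Cre 1, 2 and 3 the weights were 62704, 667 and 4442300 for ND1. They were 7917450000, 1370 and 15593 for ND2, and 2602, 1005510 and 370 for ND4. The voom calls also depended on its settings. With robust moderation and library sizes from before the filter, the setting used first, ND1 was called in limma voom (-1.13, adjusted p = 0.0340), and ND2 (0.94, adjusted p = 0.698) and ND4 (0.34, adjusted p = 0.0543) were not. With robust moderation alone ND1 (adjusted p = 0.0493) and ND4 (adjusted p = 0.0208) were called in voom and ND2 was not (adjusted p = 0.219). Over the table these settings called 134 and 147 of 5727 genes, in that order. The median log2 fold change of all genes was 1.58 in voom.

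**Figure D4:**
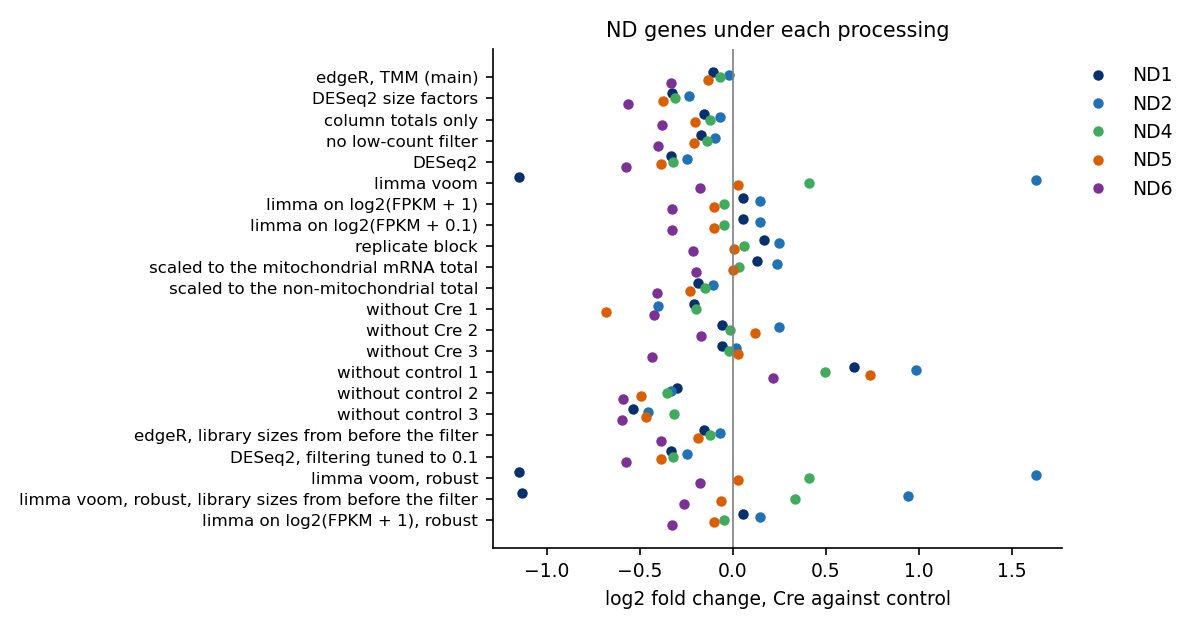
Log2 fold change (Cre against control) of ND1, ND2, ND4, ND5 and ND6 under each processing, 1 line per setting, with 0 marked. All 5 are below 0 with TMM in edgeR and above 0 without control 1, and voom spreads them from -1.15 (ND1) to 1.63 (ND2).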

How the data were processed

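Retinal ganglion cell RNA of 6 samples, 3 per genotype, was sequenced; the VAHTS Universal V6 kit was used, per the labels' protocols. The build mm10 and the tools HISAT2, HTSeq, fastp, DESeq2 and R 3.2.0 are named, per the submitters' processing notes, with no role. The authors deposited raw counts per gene and FPKM, 1 column per sample. Dividing counts by column total and deposited FPKM gave a fixed gene length, 957 bases for ND1 and 297 for ND4L, as in RefSeq GRCm38.p6 and GENCODE M21, from which coordinates and sequences were taken.

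Counts were compared with edgeR 4.0.16 (TMM, filterByExpr, robust quasi-likelihood F test, genotype as only term, Benjamini-Hochberg over 5727 genes, threshold 0.05) in R 4.3.3. The code was run on simulated data with a much smaller spread between libraries than here. In these data edgeR's estimate of that relative spread, the biological coefficient of variation, was 2.04. The simulation therefore cannot show how many true differences the test would find here. DESeq2 1.42.0 (16513 genes without adjusted p), limma 3.58.1 on voom values or log2(FPKM + 1), other scalings and each library left out were alternatives. Exact permutation tests went over every split of the 6 libraries into 3 and 3, and the Wilson intervals used scipy 1.17.1. Settings of edgeR (library sizes after the filter), DESeq2 (filtering tuned to 0.05) and limma (no robust moderation) were changed after first results were seen, to follow an earlier description of these data; the first settings are given as alternatives. The choice of copy-free length, of the run from COX2 to ND4L and of the profile of 5 members also followed the values. The members and gene lists were chosen with earlier results of these data known. Named were all members, the 2 other mitochondrial mRNAs with the smallest p, the 3 genes with the smallest p among nuclear subunits, assembly factors and RNA factors (not the replication genes), and the 5 genes with the closest profile. PCR reads without molecular identifiers are not independent, so intervals cover counting error only.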

Additional observations from a re-analysis of the deposited data

How the results depend on the processing

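Of 7 ND genes, ND4L alone kept its sign under all 21 alternatives, and ND6 turned in 1. ND4L had only 4, 26 and 0 counts in controls 1, 2 and 3. Its edgeR log2 fold change was 3.29 ± 2.89 (SE). Not one passed outside voom, where ND1 was called at -1.15 and ND2 (1.63) and ND4 (0.41) turned and were called; ND3 (2.67) and ND5 (0.0287) turned without a call. With limma on log2(FPKM + 1) ND1 (0.0562), ND2 (0.15) and ND3 (1.22) turned, and with log2(FPKM + 0.1) ND1 (0.0562), ND2 (0.15) and ND3 (2.31). Scaled to the mitochondrial mRNA total ND1 (0.13), ND2 (0.24), ND4 (0.0361) and ND5 (0.0010) turned. With the replicate block ND1 (0.17), ND2 (0.25), ND3 (1.14), ND4 (0.0635) and ND5 (0.0101) turned; 0 genes were called over the table. The block rests on the sample number alone: deviations of same-numbered samples correlated at -0.02, 0.03 and -0.01 across genes. The cause was not tested. With 1 library left out the values ran from -0.53 to 0.66 (ND1), -0.46 to 0.99 (ND2), -0.86 to 0.25 (ND3), -0.35 to 0.49 (ND4), 1.57 to 5.67 (ND4L), -0.68 to 0.74 (ND5) and -0.60 to 0.22 (ND6); the highest came without control 1 in each but ND4L. The log2 ratio of summed ND CPM ran from -0.47 to 0.42, and the difference in ND share from 0.52 to 7.94 percentage points; with COX1 left out of the total it was -0.80. Genes called over the table were 885 with DESeq2, 88 with voom and 0 to 7 with a library left out (7 without control 1, 281 at an unadjusted p under 0.05 with all libraries). Under the settings used first, and replaced after their results were seen, DESeq2 called 840 genes, voom (robust, library sizes from before the filter) 134, with ND1 called at -1.13 and ND2 (0.94), ND3 (2.60) and ND4 (0.34) turned but not called, and edgeR with library sizes from before the filter 0, with ND1 at -0.15; robust limma on FPKM left the ND values as above. Robust voom alone called 147. The share with all mitochondrial rows as denominator was not run, since the table lists 13 mitochondrial rows, all mRNAs.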
